A study of Mus musculus with 4 samples.

Results

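Interferon-stimulated genes are the genes that cells switch on after an interferon binds its receptor. Here 58 of them were followed through the leukocytes of a mouse melanoma. They were chosen by name and by their known antiviral, sensing or signaling roles, with earlier results of these data known. Of these 58 genes, 56 had a row among the 32285 genes measured and are called members below; Mx1 and Mx2 are not analysed here. The members fall into 11 IFIT/OAS/MX genes, 11 GBP/IRG genes, 9 nucleic acid sensors, 3 transcription factors, 7 genes of the ISG15 system and of PARP and ubiquitin ligases, and 15 other effectors.

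The cells were live CD45+ leukocytes sorted from 10 tumors of 20967, a melanoma line from mice of C57BL/6 background with the alleles Nras LSL-G12D and Tyr::CreERT2, a Cre driven by the tyrosinase promoter of melanocytes. The hosts were wild-type C57BL/6 mice, so the leukocytes carried neither allele. Tumors of 5 mice were treated with the potent glucocorticoid (GC) clobetasol propionate and tumors of 5 others with a control. All were collected 4 days after treatment, and sorted cells were profiled by single cell RNA sequencing of transcript 3' ends. Each tumor carried its own hashtag, an antibody with an oligonucleotide tag, and the 5 tumors of a group were pooled into one 10x Genomics channel, so treatment and channel cannot be told apart. All 10 tumors came from this 1 line, and fewer sorted cells were loaded for the GC channel.

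The control channel held 3803 cells, with 2735708 to 9869474 unique molecular identifiers (UMIs, each a tag of 1 captured RNA molecule) per tumor, and the GC channel 305 cells, with 139195 to 1235264. Median depth was 7440 UMIs per control cell and 9163 per GC cell, and the channels shared 0 cell barcodes. GC tumors held 18, 75, 111, 22 and 79 cells (replicates 1 to 5). The level of a gene below is its mean number of UMIs per 10000 UMIs over the cells of 1 class in 1 tumor. A change is the difference of log2(level + 0.1) between GC and control tumors, tested with limma across all genes whose mean level was at least 0.2. This mean is over control and GC tumors together, so a gene low after GC can pass through control tumors alone. A Benjamini-Hochberg adjusted p under 0.05 is called. Counts of members are set beside the share of all tested genes called in the same direction, since nothing particular to the members follows from a share near it. A member share above it describes this list and is no independent support. Earlier results of these data were known when the list was made. For fits with 1 tumor left out and most other alternatives, the share of all genes is not given. Those counts cannot tell a shift of the members from one of all genes. The neutrophil, TAM (tumor-associated macrophage) and CD8 T cell classes used below expressed their own markers, and the 6 melanoma markers examined were at or near 0 in all 3.

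Type I interferons signal through IFNAR, the kinases JAK1 and TYK2, and a complex with STAT2 and IRF9 that binds the interferon-stimulated response element (ISRE). Interferon-γ signals through IFNGR to the γ-activated sequence (GAS). IFIT and OAS proteins bind or respond to viral RNA in the cytosol and are classical type I interferon targets. Guanylate-binding proteins (GBPs) and immunity-related GTPases (IRGs) attack vacuoles that hold intracellular pathogens and are strongly induced by interferon-γ. In tumors, leukocytes can meet both kinds of interferon.

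The promoters of the members were searched for motifs of these programs, and the counts are a description with no test. Windows from 250 bases before to 50 bases after the start of a RefSeq transcript (GRCm38.p6) were available for 46 of the 58 genes and for 27025 genes in all. Both strands were searched for an ISRE-type motif, GAAANNGAAA, and for a GAS-type motif, TTCNNNGAA, which may overlap each other. The ISRE-type motif was present in 30 of 46 members (65.2%) and in 3.99% of all genes, and the GAS-type motif in 13 members (28.3%) and in 9.55% of all genes. Of the 10 IFIT/OAS/MX genes with a window, 7 held the ISRE-type and 2 the GAS-type motif, and 1 held both. Of the 10 GBP/IRG genes with a window, 9 held the ISRE-type and 6 the GAS-type motif, and 6 held both. These 6 include Igtp and Irgm2, whose stretches are nearly the same, and the near-identical Tgtp1 and Tgtp2, so they are not independent. A match describes these letters in this window, and a missing match says nothing about binding elsewhere.

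**Figure D1:**
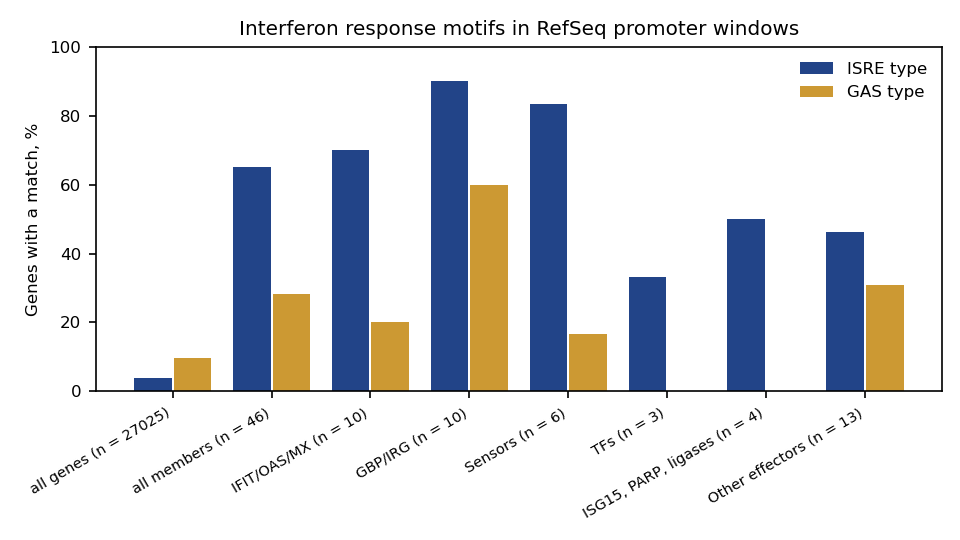
Share of genes (y axis, percent) with an ISRE-type (blue) or GAS-type (gold) motif in the RefSeq promoter window, for all genes, all members and each group of members (x axis, n is the number of genes with a window). ISRE-type matches lie at 65.2% of members against 3.99% of all genes, and GAS-type matches lie at 60% of GBP/IRG genes against 20% of IFIT/OAS/MX genes.

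The stretches below are shown for members that the comparisons turn on and for both GTPase families. They are written 5′ to 3′ in the direction of transcription, with motif matches in capitals. Rsad2 encodes viperin, which makes a chain-terminating nucleotide, and Isg15 encodes a ubiquitin-like modifier. Ifit1 encodes a cap-sensing RNA-binding protein, and Ifi213 encodes a member of the DNA-sensing AIM2-like receptor family. Gbp7 is a guanylate-binding protein, and Igtp and Irgm2 are immunity-related GTPases. Rsad2 (gene at chr12:26442746-26456452, minus strand) is shown over chr12:26456548-26456587, and Isg15 (chr4:156199424-156200818, minus strand) over chr4:156200860-156200911. Ifit1 (chr19:34640871-34650009, plus strand) is shown over chr19:34640770-34640828, and Ifi213 (chr1:173566283-173599274, minus strand) over chr1:173599321-173599360. Gbp7 (chr3:142530342-142550149, plus strand) is shown over chr3:142530215-142530307, Igtp (chr11:58199556-58207591, plus strand) over chr11:58199496-58199546, and Irgm2 (chr11:58199618-58222782, plus strand) over chr11:58214887-58214937. Gene limits are those of GENCODE on GRCm38 and the stretches lie upstream of a RefSeq start. The first base of the ISRE-type match lies at -120 from the start in Rsad2, at -73 in Ifi213, at -53 in Gbp7, at -34 in Igtp and at -64 in Irgm2.
Rsad2: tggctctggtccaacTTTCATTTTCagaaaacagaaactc
Isg15: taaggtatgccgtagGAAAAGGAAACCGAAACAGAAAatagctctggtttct
Ifit1: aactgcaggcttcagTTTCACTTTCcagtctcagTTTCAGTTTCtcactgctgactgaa
Ifi213: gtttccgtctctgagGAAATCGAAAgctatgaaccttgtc
Gbp7: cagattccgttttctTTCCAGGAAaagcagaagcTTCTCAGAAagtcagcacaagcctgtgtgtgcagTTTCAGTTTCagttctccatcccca
Igtp: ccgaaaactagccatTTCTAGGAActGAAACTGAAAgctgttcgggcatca
Irgm2: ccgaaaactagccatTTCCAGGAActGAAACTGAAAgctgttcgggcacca
Isg15 held 3 overlapping ISRE-type matches and Ifit1 held 2, with no GAS-type match in either window. Gbp7 held 2 GAS-type matches and 1 ISRE-type match, and in Igtp and Irgm2 both motifs lay side by side in nearly the same stretch. The Irgm2 gene model spans Igtp on the same strand, so reads of Igtp and Irgm2 could be split between them, as could reads of the near-identical pairs Tgtp1 and Tgtp2, Ifit3 and Ifit3b, and Oas1a and Oas1g. Their single values are uncertain.

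In control tumors, the members were concentrated in a small T cell cluster and a monocyte cluster. Levels were compared over the 13 of 16 clusters that had at least 10 cells in at least 3 control tumors, under the authors' cluster names. The cluster CD8 3 held the highest level of 35 of the 56 members, Monocytes 1 of 19 and Tregs (regulatory T cells) of 2. Among lymphoid clusters alone, CD8 3 was highest for 50 members, and among myeloid clusters alone, Monocytes 1 was highest for 50. The authors built the clusters from these same cells and genes, so these levels are a description with no test. CD8 3 made up 2.47% of control cells and Monocytes 1 8.18%.

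**Figure D2:**
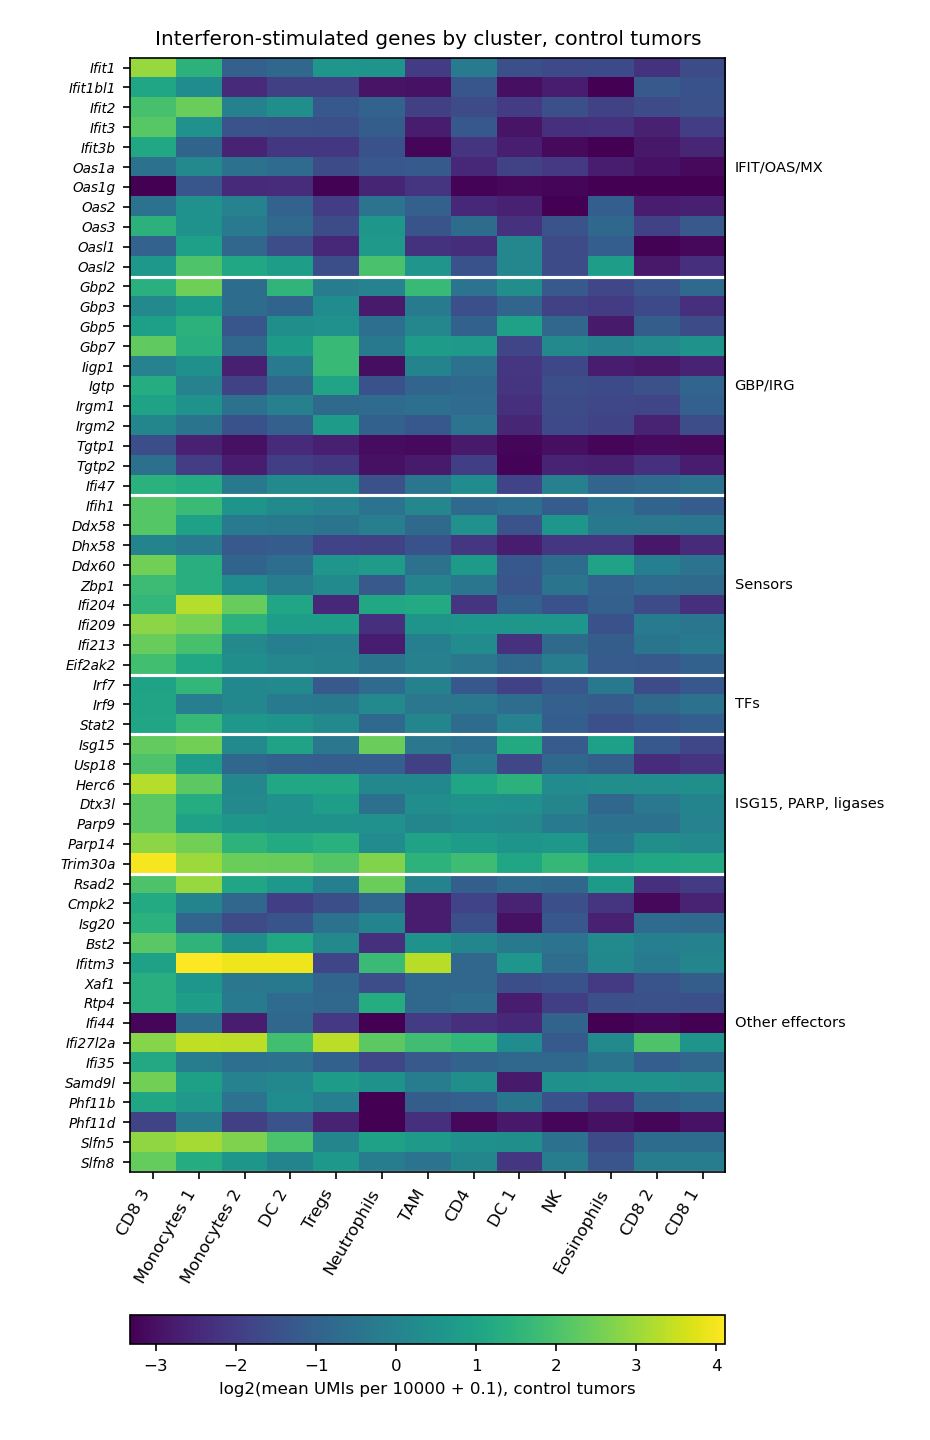
Mean level of each member (rows, grouped by role) in each cluster (columns, ordered by summed level) in control tumors, as log2(mean UMIs per 10000 + 0.1) on the color scale. The left columns, CD8 3 and Monocytes 1, are the brightest for most rows, and Ifitm3 and Ifi204 are bright mainly in myeloid columns.

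Summed over all members, CD8 3 reached 188 ± 44.3 per 10000 (SD, n = 3 tumors) and Monocytes 1 167 ± 31.1 (n = 4), and every control tumor of Monocytes 1 lay above every control tumor of the next cluster, Monocytes 2, at 81.5 ± 4.06 (n = 5). The lowest sums were 25.1 ± 2.67 in CD8 1 and 25.8 ± 7.94 in CD8 2 (both n = 5). CD8 T cell clusters thus stood at both ends of this order. The median control cell held 13 UMIs of IFIT/OAS/MX genes in CD8 3 and 0 in CD8 1 and CD8 2, at median depths of 6788, 6342 and 7889 UMIs.

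The IFIT/OAS/MX and GBP/IRG groups were ordered differently over the clusters. Summed IFIT/OAS/MX levels were 25.6 ± 6.53 in CD8 3 (n = 3), 20.4 ± 6.07 in Monocytes 1 (n = 4) and 10.2 ± 4.61 in neutrophils (n = 5), and no neighbors in this order were separated without overlap of their tumors. Monocytes 2 (6.51 ± 1.21), DC 2 (5.66 ± 2.61), eosinophils (3.47 ± 0.905), Tregs (3.20 ± 0.859), TAMs (2.99 ± 0.663), DC 1 (2.84 ± 1.21) and CD4 (2.74 ± 0.920) followed. NK cells (1.51 ± 0.798), CD8 1 (1.49 ± 0.166) and CD8 2 (1.06 ± 0.223) were lowest. Neutrophils thus ranked next to the leading pair in mean level, with tumors from 5.57 to 16.5.

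Summed GBP/IRG levels were 19.5 ± 4.05 in CD8 3, 18.6 ± 5.16 in Monocytes 1 and 14.8 ± 1.44 in Tregs, and every Treg value lay above every value of DC 2 (9.79 ± 2.10). TAMs followed at 9.40 ± 0.684, above CD4 (6.32 ± 1.17) without overlap. DC 1 (4.26 ± 1.33), CD8 1 (3.88 ± 0.368), NK (3.81 ± 0.441), neutrophils (3.68 ± 2.23), Monocytes 2 (3.66 ± 0.477) and CD8 2 (3.07 ± 0.477) overlapped with their neighbors, and eosinophils were lowest at 2.40 ± 0.635. The ratio of the IFIT/OAS/MX sum to the GBP/IRG sum, set side by side across clusters, was highest in neutrophils at 2.77 and in Monocytes 2 at 1.78, and lowest in Tregs at 0.216 and TAMs at 0.318. CD8 3 at 1.31 and Monocytes 1 at 1.10 lay between, with both sums high.

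**Figure D3:**
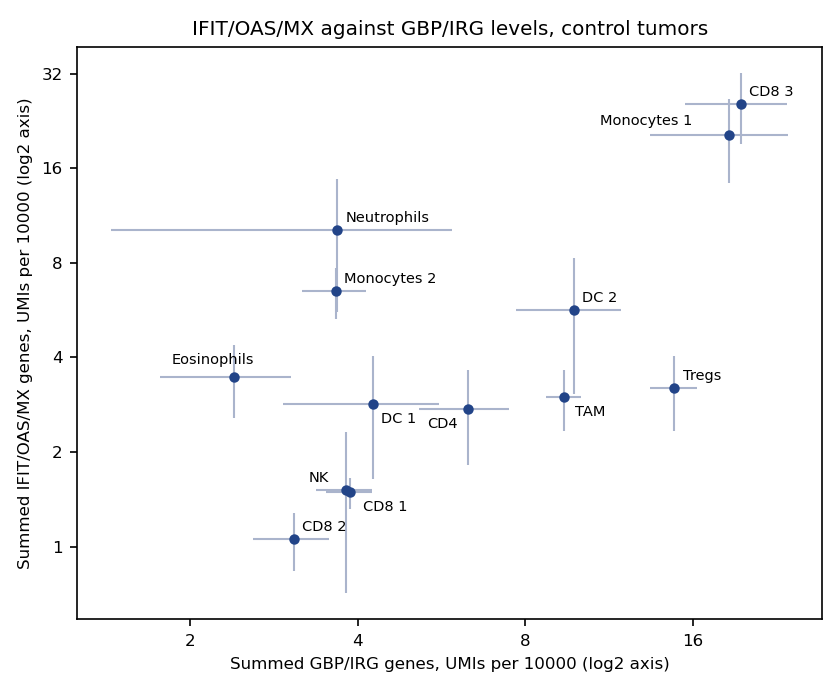
Summed GBP/IRG level (x axis) against summed IFIT/OAS/MX level (y axis) in control tumors, both in UMIs per 10000 on log2 axes; points are means and bars are SD over 3 to 5 tumors. CD8 3 and Monocytes 1 sit at the top right, neutrophils at 10.2 against 3.68 lie toward IFIT/OAS/MX, and Tregs at 3.20 against 14.8 lie toward GBP/IRG.

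Among IFIT/OAS/MX genes, Ifit1 was highest in CD8 3 at 7.75 ± 1.64 and reached 2.64 ± 1.02 in Monocytes 1. Ifit2, which encodes a related RNA-binding protein, was highest in Monocytes 1 at 5.29 ± 2.17, and Ifit3 in CD8 3 at 4.44. Oasl2, an OAS-like protein, was 4.05 ± 1.02 in Monocytes 1 and 3.87 ± 1.41 in neutrophils, and Oasl1 1.75 ± 0.479 and 1.51 ± 1.08. Neither gene differed between these clusters beyond the spread between tumors.

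Among GBP/IRG genes, Gbp2 was highest in Monocytes 1 at 5.41 ± 1.70 and next in TAMs at 3.10 ± 0.570. Gbp7 was 4.84 ± 0.996 in CD8 3 and 3.17 ± 0.335 in Tregs. Iigp1, an immunity-related GTPase, was highest in Tregs at 3.19 ± 0.736 and reached 1.23 ± 0.578 in Monocytes 1 but 0.0218 ± 0.0488 in neutrophils. Irgm2 was also highest in Tregs, at 1.61. Tregs were thus high in single GTPases and not in IFIT genes, with Ifit2 at 0.311 ± 0.117.

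The sensor Ifi204, an AIM2-like receptor of myeloid cells, was 9.68 ± 1.19 in Monocytes 1 and 0.106 in CD8 1, while its relative Ifi209 was 6.97 in CD8 3 and 6.06 in Monocytes 1. Ddx60, a helicase that aids RNA sensing, was 5.72 in CD8 3. The transcription factors Stat2 and Irf7, the master regulator of interferon-α genes, were highest in Monocytes 1 at 3.09 ± 0.629 and 2.96 ± 0.371, and Irf9 in CD8 3 at 1.92 ± 0.535. Trim30a, a TRIM-family ubiquitin ligase, was 15.9 ± 4.02, Herc6, the mouse ISG15 ligase, 9.75 and Parp14, an ADP-ribosyltransferase, 7.01 in CD8 3. Their means in Monocytes 1 were 8.02, 4.63 and 5.64.

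Of the other effectors, Ifitm3, a membrane protein that blocks virus entry, was 17.2 ± 1.66 in Monocytes 1, 15.2 ± 0.954 in Monocytes 2, 15.1 ± 1.90 in DC 2 and 9.78 ± 1.15 in TAMs, but 1.83 ± 1.17 in CD8 3. Its order over clusters thus differed from that of the summed members, with CD8 3 low. Ifi27l2a, a small mitochondrial protein, was 10.5 ± 1.38 in Monocytes 1, 10.3 ± 2.03 in Monocytes 2 and 10.0 ± 1.72 in Tregs. Slfn5, a Schlafen family member, was 8.55 in Monocytes 1. Bst2 (tetherin), which holds budding virus at the cell surface, was 4.51 ± 1.36 in CD8 3 and 0.106 ± 0.0375 in neutrophils, whereas neutrophils held 5.34 ± 3.18 of Rsad2 and 5.28 ± 2.49 of Isg15.

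Monocytes 1 supplied 44.3% of all IFIT/OAS/MX UMIs of the control channel from 8.18% of its cells, TAMs 15.2% and CD8 3 8.58%. GBP/IRG UMIs came from TAMs (29.7%), Monocytes 1 (24.6%) and Tregs (16.1%). Pooled UMIs over all CD45+ cells thus draw mostly on a few clusters. These shares weigh deeper cells more, whereas the level compared below weighs each cell alike, so they are not the shares of that level.

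The first comparison asked whether the members differed between GC and control tumors over all CD45+ cells, which include the cells of every class tested below. Of 46 members tested, 14 were lower after GC, or 30.4% against 3.82% of all genes, and 0 were higher, against 2.33%. With edgeR on UMI sums, 12 were lower (3.6% of all genes) and 0 higher (5.83%), and 10 members were under the level filter. The median change was -0.99 over members and -0.11 over all genes; edgeR's scaling placed the latter at 0.01 and the former at -0.84, and every member tested remained below 0. In a level averaged over cells of all types, fewer cells of a type and less RNA per cell cannot be told apart. Monocytes 1 made up 8.67%, 7.63%, 10.4%, 7.71% and 1.15% of control cells and 0%, 9.33%, 8.11%, 0% and 2.53% of GC cells (replicates 1 to 5), and the part of this share in the changes was not tested.

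By role, 3 of 7 IFIT/OAS/MX genes were lower with a median change of -1.42, and 1 of 9 GBP/IRG genes with a median of -0.63. The other groups had 3 of 8 sensors, 3 of 3 transcription factors, 1 of 7 genes of the ISG15 system and ligases, and 3 of 12 other effectors lower. Both GTPase and IFIT/OAS/MX medians lay below that of all genes, and nothing called was higher.

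Ifi27l2a had the lowest adjusted p of the members. Its level was 4.50, 3.66, 4.61, 5.71 and 3.13 in control tumors and 1.43, 1.36, 1.02, 1.33 and 1.77 in GC tumors, without overlap (change -1.57 ± 0.18 SE, adjusted p = 0.00069). Ifi213 was 1.00, 0.848, 1.39, 0.992 and 0.747 in controls and 0.289, 0.428, 0.225, 0.199 and 0.360 after GC (-1.46 ± 0.21, adjusted p = 0.00282). Gbp3, the single GBP/IRG gene called, was 0.654, 0.595, 0.520, 0.547 and 0.427 in controls and 0.0913, 0.232, 0.185, 0.243 and 0.192 after GC (-1.19 ± 0.19, adjusted p = 0.00563). These 3 genes were called in all 20 alternative analyses, and for each every GC tumor lay below every control tumor. Not all alternatives were distinct: at least 5 cells per tumor repeats the main fit, and at least 20 cells repeats the fit without GC replicate 1.

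Rsad2 was 1.56, 1.18, 2.26, 2.29 and 1.00 in controls and 0.162, 0.368, 0.148, 0.0379 and 1.25 after GC (-2.24 ± 0.51, adjusted p = 0.0264). GC replicate 5 lay inside the control range. For Ifit1 it lay above every control, at 1.35 against 0.571 to 1.15. The remaining calls were Ifit2 (-1.73, adjusted p = 0.0261), Oasl1 (-1.42, 0.0201), Oasl2 (-1.43, 0.0433), Ifih1 (-1.20, 0.0477), Zbp1 (-1.33, 0.0282), Irf7 (-1.45, 0.0178), Irf9 (-0.70, 0.0416), Stat2 (-0.84, 0.0496), Trim30a (-0.88, 0.0483) and Rtp4 (-1.28, 0.0466), the last a chaperone of G protein-coupled receptors. Ifih1 and Zbp1 encode sensors of double-stranded RNA and of Z-form nucleic acid. The called Gbp3, Ifit2 and Oasl1 had mean GC levels of 0.188, 0.166 and 0.0850. These lay under 0.2, so the 3 genes passed the level filter through control tumors. Leaving out control replicate 1, 2, 3 or 4 left 3 calls each, and 8 were left without control replicate 5. Without GC replicate 3 there were 7, without GC replicate 4 there were 9, and without GC replicate 2 or 5 there were 22 and 23.

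Named members that were not called were Isg15 (-1.75, adjusted p = 0.0667), Ifit1 (-1.75, 0.119), Ifit3 (-1.13, 0.151), Bst2 (-0.86, 0.0915) and Ifitm3, at 5.13, 4.36, 5.01, 4.92 and 4.07 in controls and 1.22, 5.89, 4.25, 0.840 and 2.28 after GC (adjusted p = 0.193). The GTPases Gbp2 (-1.11, 0.198), Gbp5 (-0.96, 0.289), Gbp7 (-0.63, 0.300), Igtp (-0.51, 0.373), Irgm1 (-0.53, 0.351) and Iigp1 (-1.18, 0.0991) were not called either. In lymphoid clusters alone 7 of 45 members were lower, against 5.7% of all genes (Gbp2, Gbp3, Iigp1, Ifi213, Irf9, Bst2 and Ifi27l2a, listed after their values were seen). In myeloid clusters alone 24 of 49 were lower, against 11.8% of all genes, and the difference between these fits was not tested.

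**Figure D4:**
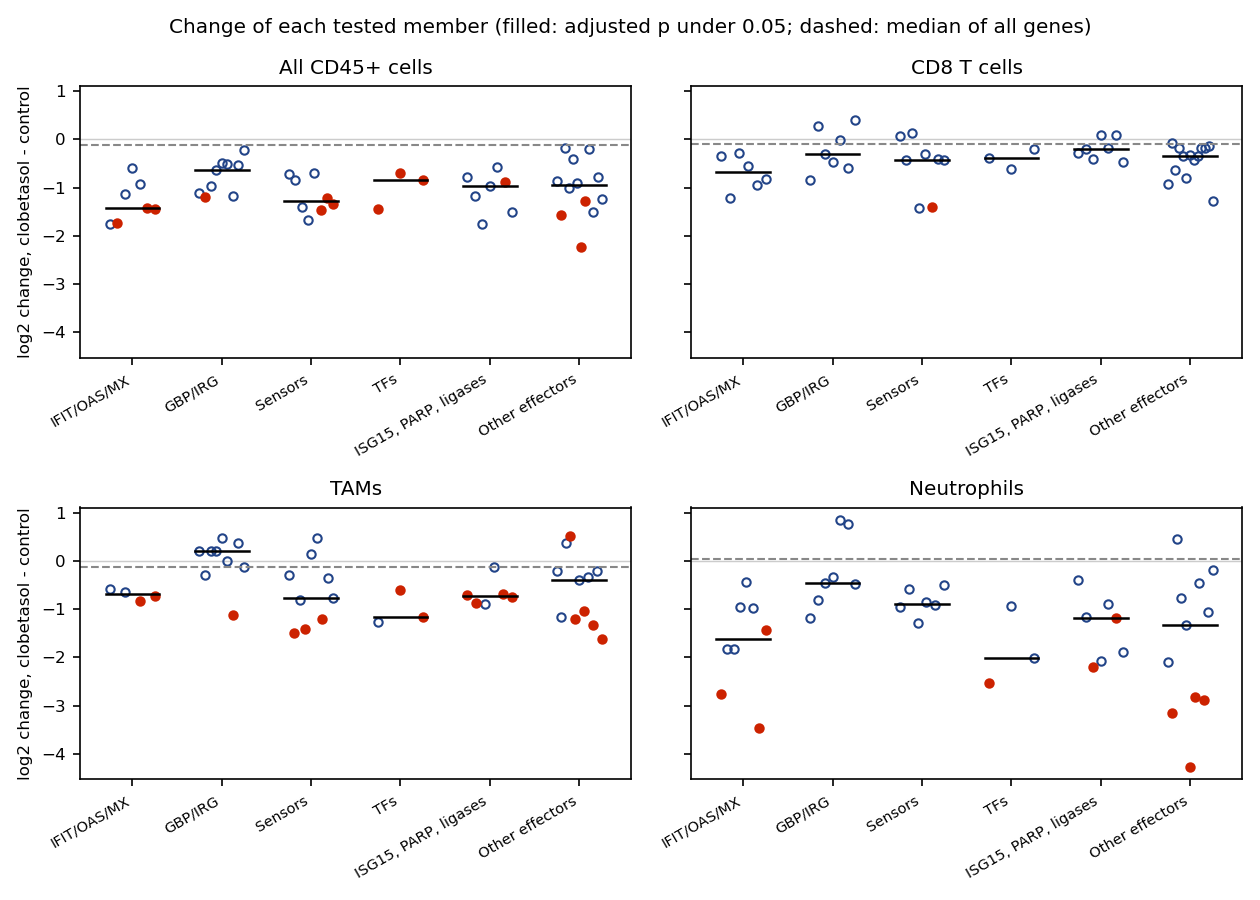
Change of each tested member after GC (y axis, log2 GC minus control on the level + 0.1 scale) by role (x axis) in 4 classes of cells; filled red points have an adjusted p under 0.05, black bars are group medians and the dashed line is the median of all genes. GBP/IRG genes lie around 0 in TAMs (median 0.20) while IFIT/OAS/MX genes lie at -0.69, and the lowest points are those of neutrophils.

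In neutrophils, 10 of 42 members were lower after GC, or 23.8% against 2.74% of all genes, and 0 were higher, against 2.09%. This comparison rests on 5 control tumors and on GC replicates 2 and 3, with 19 and 14 neutrophils, since no other GC tumor held 10. By edgeR, 6 members were lower (1.97% of all genes) and 0 higher (2.63%). The median change was -1.02 over members and 0.03 over all genes, and 14 members were under the filter. IFIT/OAS/MX genes had a median of -1.62 with 3 of 8 lower, and GBP/IRG genes a median of -0.46 with 0 of 7 lower. Since 6 tested members, 3 of them IFIT/OAS/MX genes, were at 0 in both GC tumors, these medians depend on the added 0.1. These 6 passed the level filter through control tumors alone, and Oasl1 and Irf7 of these are counted among the 10 calls. The called Rsad2, at 0.157 and 0.128 in GC replicates 2 and 3, also passed the filter of 0.2 through control tumors. With such genes set to a floor of 3 UMIs over the GC group (0.156 per 10000), the medians were -0.93 over members and -0.97 over IFIT/OAS/MX genes.

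Summed IFIT/OAS/MX levels in neutrophils were 7.14, 8.23, 13.4, 16.5 and 5.57 in control tumors and 3.21 and 1.99 in GC replicates 2 and 3. Summed GBP/IRG levels were 6.86, 2.28, 3.14, 4.89 and 1.21 in controls and 4.57 and 2.34 after GC. The first sums did not overlap and had a GC mean at 0.256 of the control mean, while the second lay within the control range, with a ratio of means of 0.939. GC replicate 5, whose 7 neutrophils were too few for the test, held 11.97 of IFIT/OAS/MX and 8.07 of GBP/IRG, the first inside the control range and the second above it. GC replicates 1 and 4, with 2 neutrophils each, held 2.59 and 1.97 of IFIT/OAS/MX.

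Rsad2 was 4.53, 2.20, 7.74, 9.51 and 2.73 in control neutrophils and 0.157 and 0.128 in GC replicates 2 and 3 (-4.28 ± 0.48, adjusted p = 3.61e-05, edgeR 0.01). In GC replicate 5 it was 4.64, from 18 UMIs in 3 of 7 cells, inside the control range. With tumors of at least 5 neutrophils the change was -2.85 with an adjusted p of 0.19, so the call depends on leaving that tumor out. Over all neutrophils, 32.1% of 162 control cells and 13.6% of 44 GC cells held an Rsad2 UMI, at median depths of 4220.5 and 5881.5 UMIs, and 23.5% and 9.30% after thinning each cell to 2000 UMIs, with 13 control cells and 1 GC cell left out as shallower. In cluster CD8 1 the shares with an Rsad2 UMI were 5.03% and 0%, at 6342 and 9184.5 UMIs, and 2.00% and 0% after thinning. The 0 of 54 GC cells allows up to 5.56% of cells with a UMI, which is above the control share, and sets no limit on cells that express Rsad2.

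Ifi27l2a was 5.48, 3.05, 6.16, 6.03 and 2.29 in control neutrophils and 0.172 and 0.791 after GC (-3.15 ± 0.46, adjusted p = 0.000487). Here GC replicate 5 was 0.808, also below every control tumor, and the call held with at least 5 cells (-2.86, adjusted p = 0.000665). Trim30a was 6.37, 5.58, 5.10, 8.10 and 7.097 in controls and 3.13 and 2.38 after GC (-1.19 ± 0.27, adjusted p = 0.0118), and was the other call that held with at least 5 cells (-1.06, adjusted p = 0.0268). Ifi27l2a was called in all 13 alternatives and Trim30a in all but the one without GC replicate 3.

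Isg15 was 4.45, 3.38, 5.70, 9.42 and 3.46 in control neutrophils and 1.77 and 0.532 after GC (-2.20 ± 0.43, adjusted p = 0.00648), and 3.51 in GC replicate 5. Isg15 UMIs were found in 49.4% of control and 27.3% of GC neutrophils, against 10.3% and 5.56% of CD8 1 cells. After thinning, the shares were 41.6% and 13.95% of neutrophils and 4.01% and 1.96% of CD8 1 cells. Rtp4 was 3.55, 1.71, 1.83, 3.01 and 1.49 in controls and 0.0643 and 0.536 after GC (-2.82 ± 0.50, adjusted p = 0.00202), and 3.03 in GC replicate 5. For Isg15 and Rtp4 the GC tumor with 7 neutrophils thus lay within the control range, and with it the adjusted p were 0.083 and 0.237.

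Oasl1 was 0.677, 2.04, 2.38, 2.40 and 0.0570 and Irf7 0.751, 0.235, 0.533, 0.618 and 0.409 in control neutrophils, and both were at 0 in GC replicates 2 and 3. Their adjusted p were 0.0435 and 0.0167, but the size of a change against 0 depends on the added 0.1 and is not given. In GC replicate 5 Irf7 was 1.41, above every control tumor. The remaining calls were Ifit1 (-2.75 ± 0.71, adjusted p = 0.0291), Oasl2 (-1.43 ± 0.37, 0.0281) and Slfn5 (-2.88 ± 0.65, 0.0137). Without GC replicate 3 there were 3 calls, without control replicate 3 or 4 there were 6, and with at least 5 cells there were 2, Ifi27l2a and Trim30a.

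Not called in neutrophils were Ifit3, at 0.673, 0.143, 0.687, 0.292 and 0 in controls and 0 in both GC tumors (adjusted p = 0.258), Stat2, at 0.611, 0.238, 0.486, 0.831 and 0.258 against 0.0796 and 0, and Irf9, at 1.58, 0.607, 1.08, 1.07 and 0.764 against 0.5002 and 0.426. The difference was -0.77 for Ifitm3 (adjusted p = 0.200), -1.18 for Gbp2 (0.545), -0.81 for Gbp5 (0.716), -0.46 for Gbp7 (0.774) and 0.85 for Igtp (0.581). Irgm1 was 1.09, 0.424, 0.266, 0.428 and 0.298 in controls and 0.539 and 1.26 after GC. The 7 GTPases tested thus lay on both sides of 0 with standard errors of 0.56 to 0.97, and Bst2 and Iigp1 were under the filter.

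The level of the 5 neutrophil markers in the neutrophil class was 318 to 569 in control and 396 to 516 in GC tumors. The summed macrophage markers were 1.80 to 2.69 in controls and 0.689 to 1.41 in GC tumors, with 5 of 6 lower and C1qb, C1qc and Mrc1 at 0 after GC. Their part in the changes was not tested.

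In TAMs, 16 of 42 members were lower after GC, or 38.1% against 14.3% of all genes, and 1 was higher, against 6.86%. This comparison rests on 5 control tumors and on GC replicates 2 and 3, with 17 and 16 TAMs. By edgeR the counts were 4 lower (9.52% of members, 4.26% of all genes) and 2 higher (6.93% of all genes), so most TAM calls depend on the test. The median change was -0.62 over members and -0.12 over all genes, and edgeR's scaling placed these at -0.47 and 0.00; 14 members were under the filter.

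The IFIT/OAS/MX and GBP/IRG groups lay apart in TAMs. Summed IFIT/OAS/MX levels were 3.07, 3.44, 3.44, 3.16 and 1.84 in controls and 1.81 and 1.03 after GC, below every control but close to control replicate 5, which stood below the other controls. Summed GBP/IRG levels were 9.70, 9.69, 9.29, 8.27 and 10.0 in controls and 9.30 and 11.0 after GC. The median change was -0.69 over 4 IFIT/OAS/MX genes, 2 of them lower, and 0.20 over 9 GBP/IRG genes, 1 of them lower, 0 higher by limma and 5 above 0. These medians are from limma, and for GBP/IRG genes edgeR gave 0.33. In GC replicate 5, with 7 TAMs, these sums were 1.34 and 15.2, and in GC replicate 4, with 3 TAMs, 0.573 and 7.74.

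Eif2ak2, the kinase PKR that halts translation when it binds double-stranded RNA, was 0.939, 0.867, 0.757, 0.929 and 0.752 in control TAMs and 0.282 and 0.234 after GC (-1.40 ± 0.16, adjusted p = 0.000383, edgeR 0.00573). Ddx60 was 0.613, 0.533, 0.637, 0.694 and 0.521 in controls and 0.222 and 0.0874 after GC (-1.50 ± 0.22, adjusted p = 0.00138, edgeR 0.0422). Slfn5 was 1.63, 1.27, 1.93, 1.61 and 1.10 in controls and 0.724 and 0.379 after GC (-1.33 ± 0.24, adjusted p = 0.00416, edgeR 0.0422). These 3 members were lower in all 13 alternatives, with no overlap between groups.

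Ifitm3 was the member called higher, at 8.67, 8.97, 11.5, 10.4 and 9.40 in control TAMs and 13.8 and 14.01 after GC (0.51 ± 0.12, adjusted p = 0.0132, edgeR 0.0257). It too was called in all 13 alternatives, although GC replicates 5 and 4, with 7 and 3 TAMs, were at 11.2 and 2.83, inside and below the control range. Xaf1, a binding partner of the inhibitor of apoptosis XIAP, was 0.540, 0.409, 0.675, 0.410 and 0.242 in controls and 0.0332 and 0.130 after GC (-1.61 ± 0.31, adjusted p = 0.00542, edgeR 0.0243), and lost its call with at least 5 cells per tumor (adjusted p = 0.124). Ifi47, an immunity-related GTPase, was 0.580, 0.753, 0.622, 0.550 and 0.742 in controls and 0.796 and 1.11 after GC (0.48 ± 0.18, adjusted p = 0.0799), and was called higher by edgeR alone (0.0273). Ifi47 was singled out after its values were seen. Without GC replicate 2, 3 members were higher, and without GC replicate 3 there were 2.

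The remaining TAM calls by limma were Trim30a (-0.76, adjusted p = 0.00599), Phf11b (-1.21, 0.00584), Herc6 (-0.88, 0.0113), Rtp4 (-1.05, 0.0121), Ifi213 (-1.20, 0.0124), Iigp1 (-1.11, 0.0263), Irf9 (-0.59, 0.0268), Stat2 (-1.16, 0.0319), Oasl2 (-0.73, 0.0391) and Oas3 (-0.83, 0.0491). Dtx3l and Parp9, a ubiquitin ligase and its ADP-ribosyltransferase partner, had smaller changes past the threshold. None of these 12 passed edgeR, where their adjusted p ran from 0.0758 for Iigp1 to 0.287 for Irf9. Among the TAM calls, the GC means of Ddx60, Xaf1 and Rtp4 lay under 0.2, so these passed the level filter through control tumors. Iigp1 was 0.680, 1.12, 1.00, 0.850 and 0.999 in controls and 0.200 and 0.642 after GC, and was the GTPase called in TAMs.

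Gbp2 was 3.70, 2.89, 3.24, 2.24 and 3.45 in control TAMs and 3.32 and 3.77 after GC (0.20, adjusted p = 0.437). Gbp7 was 1.70, 1.66, 1.501, 1.69 and 1.64 in controls and 2.06 and 1.77 after GC (0.21, adjusted p = 0.263). Both GC tumors lay above every control for Gbp7 but not for Gbp2. Gbp5 (0.21), Igtp (-0.01) and Irgm1 (0.37) were not called. Neither were Rsad2 (-0.40, adjusted p = 0.140), Isg15 (-0.89, 0.124), Irf7 (-1.27, 0.0815) and Bst2 (-0.20), and Ifit1, Ifit3 and Oasl1 were under the filter in TAMs.

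Of the other marker lists in TAMs, summed neutrophil markers were 0.896 to 1.18 in controls and 1.93 to 3.63 after GC, with 3 of 5 higher and S100a9 and Retnlg at 0 after GC. Plasmacytoid dendritic cell markers were 4.03 to 5.08 and 1.52 to 1.73, with 2 of 4 lower and the defining Siglech and Klk1 at 0 in every tumor. The part of these differences in the changes was not tested.

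**Figure D5:**
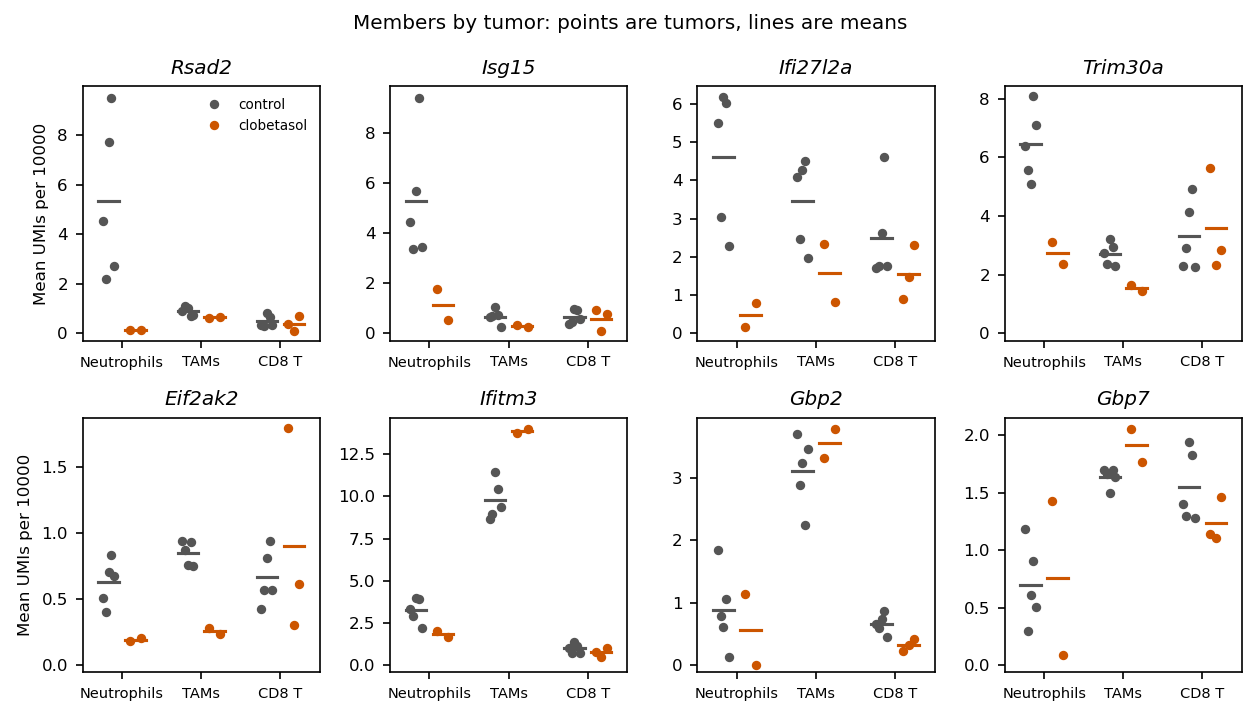
Level of 8 members (y axis, UMIs per 10000) in neutrophils, TAMs and CD8 T cells (x axis) of each tumor with at least 10 cells of the class; gray points are control and orange points GC tumors, and lines are means. Rsad2 fell to 0.157 and 0.128 in the 2 GC tumors with 10 or more neutrophils, Eif2ak2 fell and Ifitm3 rose without overlap in TAMs, and Gbp2 in TAMs overlapped between groups.

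In CD8 T cells (clusters CD8 1, CD8 2 and CD8 3), 1 of 44 members was lower after GC, or 2.27% against 2.74% of all genes, and 0 were higher, against 2.27%. The count is thus near the background. By edgeR 1 was lower (2.27% of all genes) and 0 higher (3.9%), 12 members were under the filter, and the median change was -0.35 over members and -0.09 over all genes. The test used 5 control tumors and GC replicates 2, 3 and 5, with 12, 38 and 41 CD8 T cells.

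The gene called in CD8 T cells was Ifi213, at 0.869, 0.901, 1.17, 1.62 and 0.963 in controls and 0.337, 0.288 and 0.414 after GC (-1.41 ± 0.22, adjusted p = 0.00408, edgeR 0.00806). It was called in 16 of 17 alternatives, where at least 20 cells per tumor and leaving out GC replicate 2 are the same fit. In CD8 1 alone its change was -1.40 with an adjusted p of 0.0784. Without GC replicate 2, 7 members were lower, and without GC replicate 5 there were 5. Xaf1 (-1.28, adjusted p = 0.0594, singled out after its value was seen) and Gbp2, at 0.659, 0.599, 0.730, 0.859 and 0.456 in controls and 0.230, 0.327 and 0.411 after GC (-0.85, 0.0570), were just outside the threshold. Rsad2 was 0.327, 0.286, 0.826, 0.681 and 0.334 in controls and 0.390, 0.0832 and 0.687 after GC (-0.42, 0.611), so the groups overlapped widely.

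The other named members in CD8 T cells had changes of -0.34 for Ifit1, -0.54 for Ifit3, -0.40 for Isg15, -0.38 for Irf7, -0.61 for Irf9, -0.19 for Stat2, -0.93 for Bst2 and -0.35 for Ifitm3. Among the GTPases they were 0.28 for Gbp5, -0.29 for Gbp7, -0.01 for Igtp and -0.59 for Irgm1. None of these passed, and Oasl1, Oasl2 and Iigp1 were under the filter. IFIT/OAS/MX sums were 3.00, 2.63, 4.53, 5.43 and 2.95 in controls and 3.05, 0.942 and 3.07 after GC, and GBP/IRG sums were 4.48, 4.38, 6.26, 6.19 and 4.83 in controls and 6.26, 3.11 and 4.46 after GC. Both sums overlapped between groups.

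The share of CD8 3, the cluster with the highest member levels, was 4.76%, 6.83%, 14.8%, 12.6% and 7.14% of CD8 T cells in controls and 16.7%, 2.63% and 9.76% in GC replicates 2, 3 and 5, or 2, 1 and 4 cells. Its part in the changes was not tested. Within CD8 1 alone, without that share, IFIT/OAS/MX sums were 1.66, 1.498, 1.49, 1.57 and 1.21 in controls and 1.03 and 0.635 in GC replicates 3 and 5, below every control, and GBP/IRG sums were 4.13, 4.09, 4.17, 3.69 and 3.32 against 3.11 and 3.39. Within CD8 2, IFIT/OAS/MX sums were 0.951, 0.804, 1.41, 1.08 and 1.04 against 0.365 and 0.516, again below every control. Without CD8 3 cells, an alternative chosen after seeing the data, 3 members were lower (Ddx60, Ifi213 and Irf9).

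In the CD8 T cell class, summed monocyte markers were 11.7 to 17.1 in control and 4.56 to 5.11 in GC tumors, with 4 of 4 lower and Vcan at 0 after GC. This list held Ly6c2, Ccr2, Plac8 and Vcan, and its sum cannot tell carried-over monocyte RNA from expression by the T cells themselves. Macrophage markers were 0.467 to 0.994 and 0.0943 to 0.266, with 6 of 6 lower and Adgre1 and Mrc1 at 0 after GC. The part of these values in the changes was not tested.

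The change after GC was then compared between classes in 1 fit with the tumor as a random block. Between neutrophils and CD8 T cells, the difference of changes was below 0 for 6 of 47 members, against 2.47% of all genes, and above 0 for 0, against 3.51%. These 6 were Rsad2 (-3.86, adjusted p = 0.000709), Slfn5 (-2.70, 0.0310), Ifi27l2a (-2.53, 0.0204), Rtp4 (-2.48, 0.0334), and Oasl1 and Irf7 (adjusted p = 0.0301 and 0.0471), whose sizes are not given since both were at 0 in the GC neutrophils tested. The median difference was 0.06 over GBP/IRG genes and 0.09 over all genes. That over IFIT/OAS/MX genes depends on the added 0.1 and is not given. Rsad2 was below 0 whichever tumor was left out. It was the single one of the 6 to remain without control replicate 1 or 3, and 2 or 3 of the 6 remained without control replicate 2, 4 or 5 or GC replicate 2 or 5. The count above 0 became 1 without control replicate 1 (Irgm1) and 2 without GC replicate 2 (Irgm1 and Iigp1), genes listed after their values were seen.

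Between neutrophils and TAMs, 2 members differed below 0 (1.68% of all genes) and 0 above 0 (2.53%). These were Rsad2 (-3.87, adjusted p = 0.00256) and Ifitm3 (-1.28, 0.0433), the latter called higher in TAMs and not called in neutrophils. Rsad2 alone remained without control replicate 1, 2, 3 or 4, and without GC replicate 3 there were 4. Between TAMs and CD8 T cells, 0 of 47 members differed in either direction, against 0.441% and 0.767% of all genes. The last count does not show that TAMs and CD8 T cells acted alike. The neutrophil arm of these contrasts used GC replicates 2 and 3 alone, so the Rsad2 level of 4.64 in the 7 neutrophils of GC replicate 5 is outside it, while the CD8 T cell arm also used GC replicate 5.

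The clusters with the highest levels held too few GC cells for a test, and their pooled values are given with exact 95% Poisson intervals that cover counting error only. In Monocytes 1, IFIT/OAS/MX genes were at 21.4 (21.0 to 21.9) per 10000 in control cells and 4.27 (3.57 to 5.08) in 18 GC cells. GBP/IRG genes were at 19.8 (19.3 to 20.2) and 7.58 (6.63 to 8.63). A single GC cell held 73.6% of the IFIT/OAS/MX UMIs of the GC group. Per tumor, IFIT/OAS/MX sums were 23.4, 13.7, 27.3, 17.2 and 47.3 in controls, the last from 4 cells, and 7.75, 0.660 and 2.09 in GC replicates 2, 3 and 5, from 7, 9 and 2 cells. Rsad2 in the same cells was 8.99, 5.86, 9.81, 6.46 and 13.4 in controls and 0.535, 0 and 0 after GC, and Ifitm3 17.1, 14.9, 18.5, 18.4 and 20.5 against 13.5, 10.8 and 5.34.

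CD8 3 gave a different pair of pooled values. Its IFIT/OAS/MX genes were at 24.1 (22.9 to 25.3) in 94 control cells and 24.2 (20.5 to 28.3) in 7 GC cells, and its GBP/IRG genes at 19.99 (18.9 to 21.1) and 19.6 (16.3 to 23.4). Per tumor the IFIT/OAS/MX sums were 34.9, 21.5, 22.2, 33.1 and 26.3 in controls. They were 17.9, 10.3 and 26.1 in GC replicates 2, 3 and 5, from 2, 1 and 4 cells. GC replicates 2 and 3 thus lay below every control, and a single GC cell held 30.5% of the IFIT/OAS/MX UMIs of the GC group. The authors drew the cluster from expression that includes these genes.

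In Tregs, IFIT/OAS/MX genes were at 2.93 (2.74 to 3.12) in 486 control cells and 8.18 (6.68 to 9.93) in 14 GC cells, but a single cell of the latter held 92.2% of these UMIs. GBP/IRG genes were at 15.3 (14.9 to 15.7) and 15.7 (13.5 to 18.0). In DC 1, IFIT/OAS/MX genes were at 2.73 (2.47 to 3.01) in 97 control cells and 0.179 (0.0489 to 0.459) in 10 GC cells, where GBP/IRG genes were at 4.20 (3.88 to 4.54) and 6.59 (5.57 to 7.75). In DC 2 the pairs were 5.77 (5.39 to 6.16) and 2.48 (1.80 to 3.33), and 10.3 (9.79 to 10.8) and 5.64 (4.59 to 6.86), from 95 and 9 cells. Single GC cells of DC 2 held 43.2% of the IFIT/OAS/MX and 53% of the GBP/IRG UMIs of the GC group. The GC values came from 2 or more tumors each but from 1 to 5 cells per tumor.

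In eosinophils, which had few UMIs per cell, IFIT/OAS/MX genes were at 3.55 (3.03 to 4.14) in 478 control cells and 0.499 (0.0605 to 1.80) in 32 GC cells, from 162 and 2 UMIs. GBP/IRG genes were at 2.63 (2.18 to 3.15) and 2.25 (1.03 to 4.27). Pooled TAM values were 2.99 (2.88 to 3.10) and 1.42 (1.17 to 1.71) for IFIT/OAS/MX and 9.69 (9.49 to 9.89) and 11.8 (11.1 to 12.6) for GBP/IRG. Cluster CD8 4 held 0 GC cells.

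Other genes of the pathway were followed from a separate list of receptors, kinases, transcription factors and regulators. By limma, over all CD45+ cells 1 of 14 tested was lower and 0 higher, in CD8 T cells 1 of 13 and 0, in TAMs 0 of 14 and 1, and in neutrophils 0 of 8 and 0. The shares of all genes called in these fits are those given above for each class. By edgeR, over all CD45+ cells 0 were lower and 1 higher (Socs1, adjusted p = 0.0378), in TAMs 0 were lower and 2 higher (Socs1 and Tlr7, an RNA-sensing receptor, 0.0278), and the counts in CD8 T cells and neutrophils were those of limma. Socs1, which inhibits JAK kinases, was 0.155, 0.259, 0.222, 0.0909 and 0.170 in control TAMs and 0.679 and 1.03 after GC (1.78 ± 0.26, adjusted p = 0.00133, edgeR 0.000342). Irf8, a lineage factor of myeloid cells, was lower in CD8 T cells, at 0.504, 0.568, 0.648, 1.11 and 0.554 in controls and 0, 0.290 and 0.237 after GC (-1.67 ± 0.41, adjusted p = 0.0406, edgeR 0.0137). It was also lower over all CD45+ cells (-0.76, adjusted p = 0.0326), where edgeR did not call it (0.519). The receptor genes Ifnar1, Ifnar2, Ifngr1 and Ifngr2 were not called by limma in any class where they were tested.

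Among ligands, Ifng was 4.11 ± 1.40 in CD8 2, 2.52 ± 0.222 in CD8 3, 1.78 ± 0.411 in CD8 1 and 1.16 ± 0.220 in NK cells of control tumors, and 0.0134 in TAMs. Ifnb1 had 0 UMIs in all 16 clusters of both groups. Its transcripts were thus not detected at this depth, and no detection limit was worked out.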

How the data were processed

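Live CD45+ cells of 5 control and 5 GC tumors were profiled in 2 channels, 1 per group. The authors aligned reads to mm10 with Cell Ranger 7.1.0, introns included, assigned hashtags, filtered cells in Seurat 5.0.3 under R 4.3.1, and named 16 clusters; Partek is also listed in the submitters' processing notes. The expression values deposited by the authors are the natural log of 1 plus UMIs per 10000. Per cell, the deposited metadata hold counts of UMIs, genes and hashtag reads, and a mitochondrial percent. Whole UMIs were recovered for 100% of 10330441 values (tolerance 0.01; 4108 cells), so edgeR 4.0.16 and DESeq2 1.42.0 served as alternatives on UMI sums.

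The tumor, read from its hashtag, was the replicate, and its number is only a name. Levels of tumors with at least 10 cells of a class were compared on log2(level + 0.1) with limma 3.58.1 (trended, robust) in R 4.3.3, for genes with a mean of at least 0.2, and Benjamini-Hochberg adjusted over all genes tested. On this scale the change of a weakly expressed gene is understated. All p-values cover the spread between tumors and not that between channels. The joint fit took the tumor as a random block (consensus correlation -0.0133). Members and lists were chosen with earlier results of these data known. In each tested comparison the text names the members past the threshold, at most the 12 largest changes in each direction, plus a set of 18 fixed names where measured, and for levels the 3 highest members of each role. Scripts were tested on simulated data. Doublets within 1 tumor were not removed. Promoter sequences are from RefSeq. A gene of the pathway list is not reported here.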

Additional observations from a re-analysis of the deposited data

Results flagged for a closer look

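Of 123 sets of values examined, 7 held a tumor far from the others of its group by Dixon's test, close to the 1 in 20 that chance gives. Over all CD45+ cells, GC replicate 5 stood apart for Ifit1, at 1.346 per 10000 against 0 to 0.254 in the other GC tumors, and for Rsad2, at 1.254 against 0.0379 to 0.368. GC replicate 1, with 18 cells, stood apart for Bst2, at 1.33 against 0.346 to 0.623. Control replicate 5 was low for Gbp7 over all CD45+ cells, at 1.263 against 1.64 to 1.79, and for the summed IFIT/OAS/MX genes in TAMs, at 1.844 against 3.07 to 3.44. In control neutrophils, replicate 1 was high for Irgm1, at 1.086 against 0.266 to 0.428, and replicate 4 for Slfn5, at 4.272 against 0.587 to 1.55.

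The change after GC differed between classes for 8 pairs of member and contrast in the joint limma fit. Between neutrophils and CD8 T cells these were Rsad2 (-3.86, adjusted p = 0.000709), Slfn5 (-2.70, 0.0310), Ifi27l2a (-2.53, 0.0204), Rtp4 (-2.48, 0.0334), and Oasl1 and Irf7 (adjusted p = 0.0301 and 0.0471), both at 0 in the GC neutrophils tested. Between neutrophils and TAMs these were Rsad2 (-3.87, 0.00256) and Ifitm3 (-1.28, 0.0433).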

How the results depend on the processing

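Over all CD45+ cells the 14 lower members became 22 with DESeq2, 5 without a filter on low genes, 7 in lymphoid and 24 in myeloid clusters alone, and 3 to 23 when 1 tumor was left out. Without eosinophils and neutrophils, chosen after seeing the data, they were 11. Apart from edgeR and the lymphoid and myeloid fits, the share of all genes called in the alternatives of this section is not given. Those counts cannot tell a shift of the members from one of all genes. In CD8 T cells the 1 member became 2 without a filter, 3 without CD8 3 (chosen after seeing the data), and 5 to 7 without GC replicate 5 or 2. At least 20 cells per tumor, with 7, dropped GC replicate 2 alone and is the same fit as that without it. In TAMs the 16 lower and 1 higher became 4 and 2 with edgeR and 7 and 3 with DESeq2. The higher count was 3 on the mean of the deposited log values. It was 1 with any 1 control tumor left out, where the lower count ran from 11 to 19. In neutrophils the 10 became 6 with edgeR, 2 with at least 5 cells per tumor, and 3 to 6 without the tumors that moved it. Differences between classes counted 1 to 3 for neutrophils against CD8 T cells and 1 to 4 for neutrophils against TAMs without the tumors that moved them. At least 20 cells per tumor could not be run for TAMs and neutrophils, since no GC tumor held them. No member changed direction after a call. Of the other member values, 195 lost and 36 gained a call, 1034 kept their side of the threshold, and 37 changed sign without a call in either setting. Among the last is the share of neutrophils with an Igtp UMI. It was 7.41% in control and 9.09% in GC cells, but 4.70% and 0% after thinning to 2000 UMIs.

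With 305 GC cells, the number of cells per tumor limits every value. No paired analysis was possible because hashtag numbers are only names and no GC tumor shares an animal with a control tumor.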
